A study of Mus musculus with 94 samples.

Results

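Digital spatial profiling (DSP) was used to set tubular cells of the renal medulla against cortical ones in uninjured control kidneys. The members were the control segments labeled PanCK, 2 from the medulla and 4 from the cortex, so 6 of the 94 segments of the series. They came from 2 tissue sections, told apart by the prefix of the sample titles, and each section gave 1 medullary and 2 cortical regions. All 20175 probes of the mouse whole transcriptome panel entered the comparison. The mice were male C57BL/6. Per the labels, contralateral kidneys without injury served as internal controls, and neither the labels nor the titles say whether a control mouse had received vehicle or entospletinib, an inhibitor of spleen tyrosine kinase. The other 12 sections came from kidneys of vehicle- or entospletinib-treated mice collected on days 1, 7, and 14 after unilateral ischemia-reperfusion injury (IRI), with 2 sections per group, and are called injured sections here. Regions were placed by staining for pan-cytokeratin, CD10, and IBA1 with glomeruli avoided, and a tubular segment held the cells positive for pan-cytokeratin with or without CD10. The design text gives 2 mice per condition and time point, but nothing states in words that a title prefix stands for 1 mouse, so that the tests measure the spread between these sections.

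The cortex holds the glomeruli, most of the proximal tubule, and the distal convoluted tubule, whereas the medulla holds the deeper parts of the loop of Henle and the collecting ducts. The study counted the outer medullary stripe as medulla, and the labels do not give the depth of a medullary region. Proximal tubule cells reabsorb most of the filtered solutes and carry CD10 on their brush border. Loop and collecting duct cells build and use the osmotic gradient that concentrates the urine. A tubular segment of either region is a mixture of these cells, and fewer cells of a type cannot be told apart from less RNA per cell. Probes carry identifiers only, which nothing in the files links to genes. Markers of the nephron segments could therefore not be looked up, no probe is described by what its gene does, and no probe or gene sequence is shown. At most 2 identifiers are given in each direction.

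The control tubule segments were deeply counted. The medullary segment of section 1 held 4821455 counts and its 2 cortical segments 2226395 and 2356385. The medullary segment of section 2 held 6500412 counts and its cortical segments 5218558 and 5688838. No probe was at 0 in these segments. The control macrophage segments from the same regions held 16693 to 146173 counts.

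The first question was which probes differed between medulla and cortex in uninjured tubules. Counts were summed per section and region, scaled by the upper quartile, and tested within section by edgeR's quasi-likelihood test, with the spread estimated from all 14 sections. A call required a Benjamini-Hochberg adjusted p under 0.05 together with more than 1 log2 unit of difference. No probe was called (0 of 20175, or 0%), and the smallest adjusted p was 0.166. At an unadjusted p under 0.05 there were 814 probes (4.03%), of which 480 favored the medulla and 334 the cortex. This is no more than a threshold of 0.05 would give with no difference. The log2 fold change of medulla over cortex was above 1 for 126 probes (0.625%) and below -1 for 101 (0.501%), and its median over all probes was 0.05. The most abundant probe was the same in all 6 segments and had a log2 fold change of -0.19 with a standard error of 0.35 (edgeR adjusted p = 0.9945).

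The count of 0 depended on the tool and on the unit of replication. On the same sums DESeq2 called 3 probes, 2 favoring the medulla and 1 the cortex. With the 6 segments taken as replicates, edgeR with the section in the model called 4 probes and DESeq2 without it called 30. With all 48 tubule segments as units and the section as a random effect, limma-voom called 42 probes, 27 for the medulla and 15 for the cortex. Segments of the same section share a piece of tissue and are not independent samples. The cause of the differences between these counts was not tested.

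A single segment set the size of the result. Without the medullary segment of section 2, edgeR called 83 probes, 51 of them up in the medulla and 32 down, and 1863 probes had an unadjusted p under 0.05. Without the medullary segment of section 1, no probe was called and 95 had an unadjusted p under 0.05. Leaving out any single cortical segment gave no call, with 655 to 1158 probes at an unadjusted p under 0.05. A section without its medullary segment adds nothing to this contrast, so each of the first 2 counts rests on the other section, with the spread taken from the injured sections.

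The 2 control sections differed in how far the medulla stood from the cortex. The 1464 probes with a mean above 100 CPM in the tubule sums are called abundant. CPM here are counts scaled to a common library total adjusted by the upper quartile. Across the abundant probes, the log2 difference between medulla and cortex had an SD of 1.08 in section 1. The same SD was 0.247 in section 2. Between the 2 cortical regions of a section, the SD was 0.163 in section 1 and 0.126 in section 2. The medulla thus stood 6.63 times as far from the cortex as the cortical regions stood from each other in section 1, and 1.97 times as far in section 2. Among all 14 sections ordered by this SD, section 1 was at rank 2 and section 2 at rank 14, and the 12 injured sections ranged from 0.338 to 1.14. The 2 prefixes run through all groups, and prefix 1 had the larger SD in every group except vehicle day 7 (0.553 against 0.815). In the entospletinib group of day 7 it was 1.07 against 0.338, and in the vehicle group of day 1 it was 1.14 against 1.04. No other group had as wide a gap between its sections as control, and only the entospletinib group of day 7 came near. The direction of the control contrast was thus shared with most groups, while its size mostly was not. The cause was not tested. In section 1, 108 of the 1464 probes were more than 1 log2 unit higher in the medulla and 131 more than 1 unit lower, against 3 and 4 probes in section 2.

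**Figure D1:**
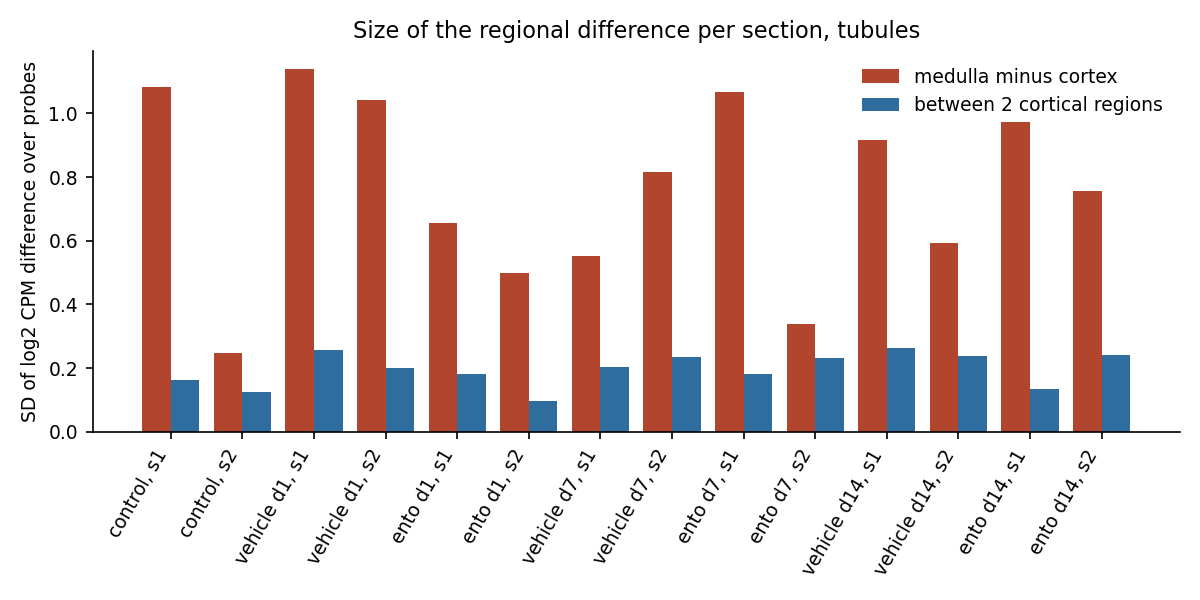
Bars give, for each of the 14 sections (s1 and s2 of each group, ento for entospletinib, d for day), the SD over 1464 abundant probes of the log2 CPM difference between medulla and cortex (red) and between 2 cortical regions (blue). Control section 1 reaches 1.08 and control section 2 reaches 0.247, the lowest of the 14 red bars.

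The segments themselves gave the same picture. Across the abundant probes, the 2 cortical segments of a section had a Pearson r of log2 CPM of 0.992 in section 1 and 0.9936 in section 2. The medullary segment of section 1 had an r of 0.608 and 0.616 with its cortical segments. The medullary segment of section 2 had an r of 0.970 and 0.975 with its own. These r values are across probes, which share library and depth and are not independent replicates. The 2 medullary segments had an r of 0.692 with each other, so that the medulla of section 2 was closer to its own cortex than to the medulla of section 1. Cortical segments of different sections had an r of 0.936 to 0.942 and an SD of the log2 difference of 0.421 to 0.450. The corresponding SD between the medulla and cortex of section 2 was 0.245 and 0.265, smaller than that between the cortices of the 2 sections.

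The direction of the difference was nevertheless often shared among abundant probes. Among the 1464 abundant probes, 1031 (70.4%) had the same sign in both sections, and r between the sections' differences was 0.55 across probes. The slope of section 2 on section 1 was 0.126, well below the slope of 1 that equal differences would give. Sign sharing was lower for less abundant probes, with 57.2% of 6765 probes between 30 and 100 CPM and 56.2% of 11217 probes between 10 and 30 CPM. Over all 20175 probes, 11949 were higher in the medulla of section 1 and 11521 in that of section 2. The abundant probes leaned the other way, with most of them lower in the medulla, above all in section 2. A lean common to both sections raises the share of equal signs, and the share expected from it was not computed. Over all probes, 9 were more than 1 log2 unit apart in the same direction in both sections, with 5 of them up in the medulla and 4 down.

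**Figure D2:**
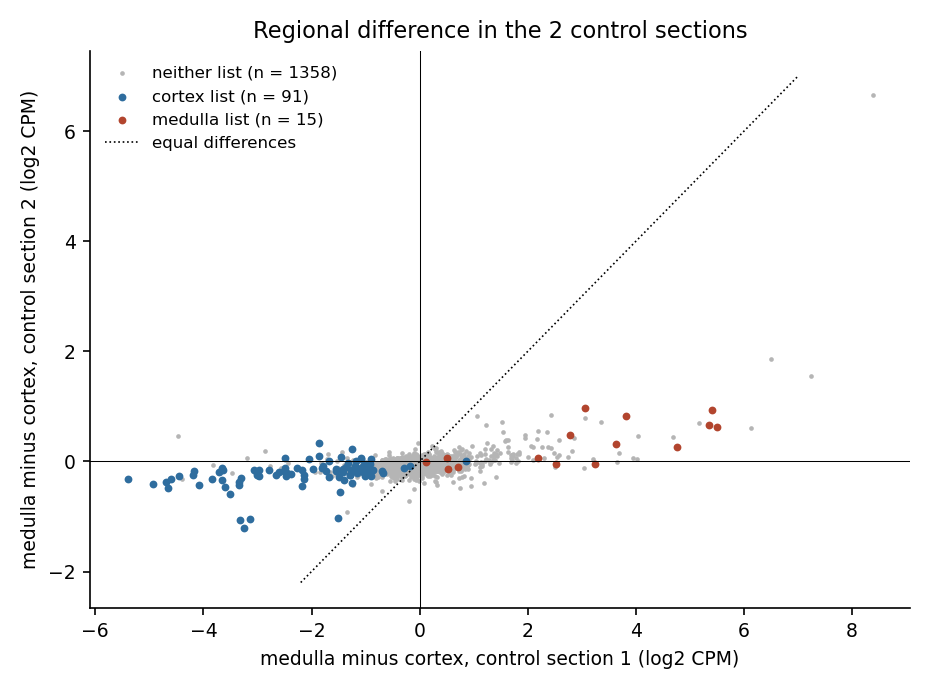
Each point is 1 of 1464 abundant probes, with the log2 CPM difference between medulla and cortex in control section 1 (x) and section 2 (y). Colors mark probes higher in the medulla (red) or cortex (blue) of injured sections, and most points lie far closer to the horizontal zero line than to the dotted line of equal differences (slope 0.126).

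Of these 9 probes, RTS0080792 had the largest fold change in the control kidneys. Since no probe was called, the 4 probes named here were chosen after their values were seen, in each direction that with the smallest p and that with the largest fold change among those beyond 1 log2 unit in both sections. RTS0080792 was at 6836 CPM in the medullary segment of section 1 and 1448 CPM in that of section 2. In the cortical segments it was at 25.0 and 14.1 CPM in section 1 and at 14.6 and 12.2 CPM in section 2. Both medullary segments were thus far above all 4 cortical segments, and the groups did not overlap. The log2 fold change was 7.59 with a standard error of 3.72 (edgeR adjusted p = 0.992), with the spread estimated from all 14 sections. With the 4 control sums alone the standard error was 0.65 (edgeR adjusted p = 0.214). DESeq2 on the sums of all sections gave RTS0080792 a standard error of 1.95 (adjusted p = 0.204). In the injured groups its medulla-to-cortex log2 fold changes ranged from 1.31 to 5.36, and its cortical segments from 9.79 to 34145 CPM. Medullary and cortical segments overlapped for this probe in the vehicle groups of days 1, 7, and 14 and did not overlap in the 3 entospletinib groups. Without the section in the model and with segments as replicates, DESeq2 gave the control difference an adjusted p of 5.47e-39.

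RTS0064201 had the smallest p among probes higher in the medulla. It was at 42.7 CPM in the medulla and at 18.8 and 23.1 CPM in the cortex of section 1, and at 45.5 CPM in the medulla and at 26.1 and 26.8 CPM in the cortex of section 2. The medullary values lay close together and above all cortical values. The log2 fold change was 0.88 with a standard error of 0.16 (edgeR adjusted p = 0.272). The mean of the injured groups was 0.31 with a standard error of 0.07 (adjusted p = 0.00443). The injured groups ran from 0.0013 to 0.62, and in the vehicle group of day 7, the lowest, the medullary segments (22.5 to 29.8 CPM) overlapped the cortical ones (23.7 to 30.5 CPM).

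RTS0068891 had the smallest p of all probes and was lower in the medulla. It was at 38.0 CPM in the medulla and at 75.5 and 104 CPM in the cortex of section 1, and at 27.9 CPM in the medulla and at 60.8 and 49.1 CPM in the cortex of section 2. The groups did not overlap. The log2 fold change was -1.11 with a standard error of 0.18 (edgeR adjusted p = 0.166). DESeq2 on the same sums called it (log2 fold change -1.16, adjusted p = 0.00133), as did edgeR with 6 segments as replicates (adjusted p = 0.0158). DESeq2 on 6 segments without the section also called it (adjusted p = 0.0303). It was not called by edgeR on the 4 control sums alone (adjusted p = 0.875) or with TMM scaling (adjusted p = 0.186). Nor was it called by limma-voom on 48 segments (adjusted p = 0.062). The probe was chosen for its p in these same segments, so the calls are no independent support. In the injured groups its log2 fold changes ran from -0.83 to 0.46, with 4 of 6 groups lower in the medulla, and their mean was -0.22 (edgeR adjusted p = 0.051).

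RTS0076576 had the largest fold change among the 4 probes lower in the medulla of both sections. It was at 30.3 CPM in the medulla and at 308 and 279 CPM in the cortex of section 1. In section 2 it was at 271 CPM in the medulla and at 740 and 526 CPM in the cortex. The medulla of section 2 was therefore just below the cortex of section 1 and well below its own. The log2 fold change was -2.21 with a standard error of 0.98 (edgeR adjusted p = 0.992). It was lower in the medulla of all 6 injured groups, with log2 fold changes of -4.31 to -2.32, and their mean of -3.47 was called (edgeR adjusted p = 0.00189).

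**Figure D3:**
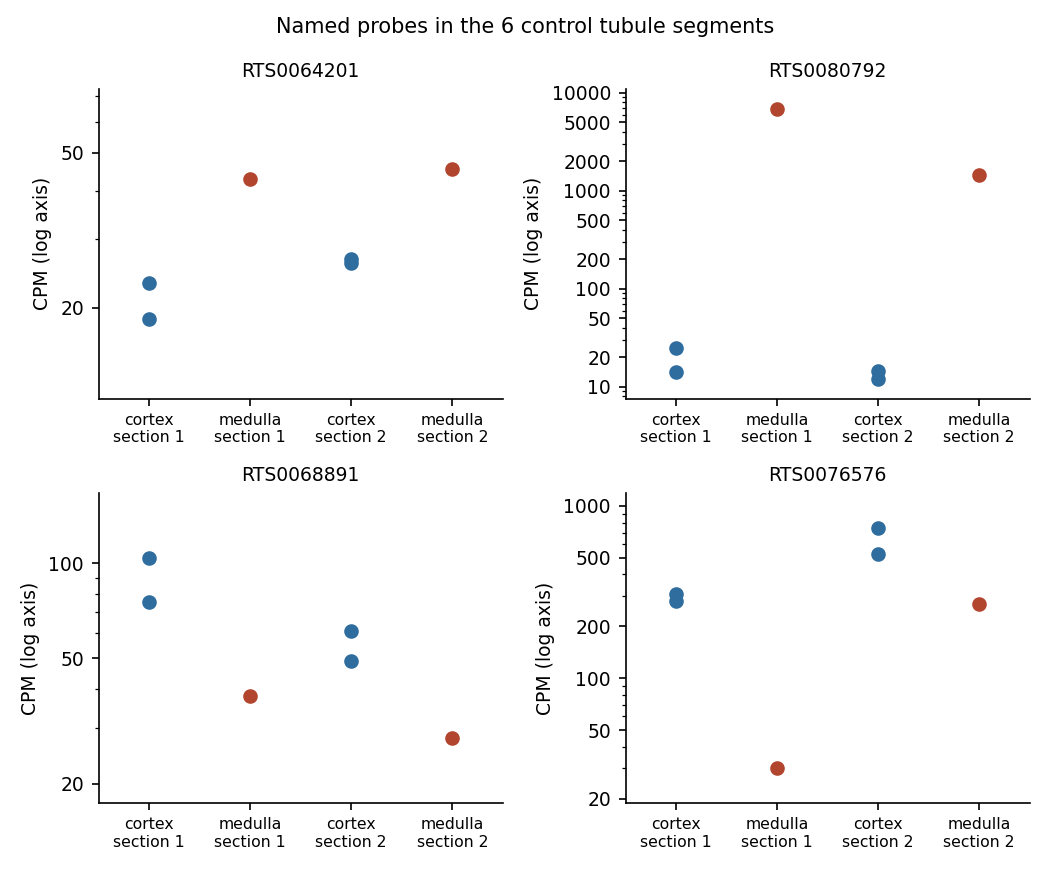
CPM scaled by the upper quartile (log axis) of the 4 named probes in the 6 control tubule segments, 1 point per segment, with medulla in red and cortex in blue. Within each section the medullary point lies above both cortical points for RTS0064201 and RTS0080792 and below them for RTS0068891 and RTS0076576.

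Probes that mark a region elsewhere were then followed in the control kidneys. In the injured sections, the mean medulla-to-cortex difference of the 6 groups was called for 205 probes (1.02%), 45 up in the medulla (0.223%) and 160 down (0.793%). No control segment entered that contrast, although the spread was estimated from all sections together. The 45 probes are called the medulla list and the 160 probes the cortex list. In the control tubules these lists had a median of 43.2 and 175 CPM, against 24.2 for all probes. Regional differences were wider for abundant probes, with an SD in section 1 of 0.335 between 10 and 30 CPM and 1.08 over 100 CPM. The shares of all probes given below are not matched for abundance.

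The medulla list was higher in the control medulla, mainly in section 1. Its median control log2 fold change was 1.16, against 0.05 over all 20175 probes, and 44 of the 45 probes had a log2 fold change above 0, against 60.1% of all probes. There were 27 probes above 1, and 6 (13.3%) had an unadjusted p under 0.05 in this direction, against 2.38% of all probes. The median difference was 2.19 log2 units in section 1 and 0.26 in section 2, with 33 and 0 of the 45 probes above 1. None was called in the control contrast (smallest edgeR adjusted p = 0.992).

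The cortex list was lower in the control medulla with the same contrast between sections. Its median control log2 fold change was -0.97, and 158 of the 160 probes had a log2 fold change below 0, against 39.9% of all probes. There were 76 probes below -1, and 21 (13.1%) had an unadjusted p under 0.05 in this direction, against 1.66% of all probes. The median difference was -1.79 log2 units in section 1 and -0.23 in section 2, with 126 and 4 of the 160 probes below -1. In section 2, 144 of the 160 probes were lower in the medulla. Of all 20175 probes, 11521 were higher there, but this is no fitting background for the list. Of its 160 probes, 91 are abundant, and most abundant probes on neither list were also lower in the medulla of section 2. The share of probes of like abundance that were lower was not counted, so an excess of the list over them was not tested. The median absolute gap between the 2 cortical segments of section 2 was 0.07 log2 units for the cortex list. None of the list was called in the control contrast (smallest edgeR adjusted p = 0.992).

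The ranges of the segments showed this without a model. Both medullary segments lay above all 4 cortical segments for 1083 of all probes (5.37%) and below all 4 for 960 (4.76%), together 10.1%. On the medulla list the medullary segments lay above for 25 of 45 probes (55.6%) and below for 0. On the cortex list they lay below for 120 of 160 probes (75%) and above for 0.

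The share of a segment's counts that fell on each list gave the same order with no scaling between segments. The medulla list took 1.19% of counts (95% exact binomial CI, 1.18% to 1.20%) in the medulla of section 1, against 0.142% (0.137% to 0.147%) and 0.146% (0.141% to 0.151%) in its cortex. In section 2 it took 0.332% (0.328% to 0.337%) in the medulla, against 0.221% (0.217% to 0.225%) and 0.215% (0.212% to 0.219%) in the cortex. The medulla was higher in each section, and the distance was larger in section 1. The cortex list took 3.08% (3.069% to 3.0997%) in the medulla of section 1, against 9.86% (9.82% to 9.90%) and 9.70% (9.66% to 9.74%) in its cortex. In section 2 it took 6.97% (6.95% to 6.99%) in the medulla, against 8.07% (8.05% to 8.09%) and 8.02% (7.99% to 8.04%) in the cortex. These intervals cover counting error only.

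**Figure D4:**
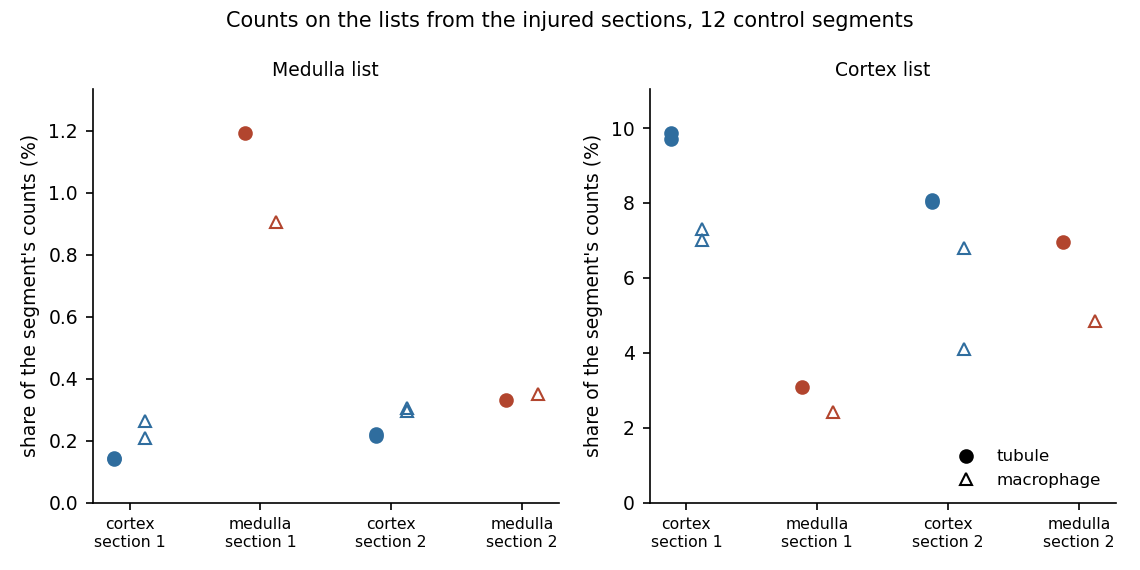
Share of each control segment's counts (%) on the medulla list and the cortex list, with circles for tubule and triangles for macrophage segments, red for medulla and blue for cortex. In tubules the medulla list falls at 1.19% in the medulla of section 1 and 0.332% in that of section 2, above their cortical segments, and the cortex list falls below them.

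The reverse comparison started from the control kidneys. Of the 126 probes with a control log2 fold change above 1, 119 were higher in the medulla over the injured groups (94.4%, against 63.0% of all probes), and 27 of the 126 (21.4%) were called there, against 0.223% of all probes. Their median log2 fold change was 0.93 over the injured groups, between 0.34 in the vehicle group of day 1 and 1.84 in the entospletinib group of day 14. All 101 probes with a control log2 fold change below -1 were lower in the injured medulla, against 37.0% of all probes, and 76 (75.2%) were called there, against 0.793%. Their median over the injured groups was -1.59, between -2.17 in the entospletinib group of day 14 and -1.02 in that of day 1. None of the 227 probes was called in the opposite direction. The 126 and 101 probes had a median of 77.0 and 176 CPM, so here too the shares of all probes are not matched for abundance. Of the 9 probes beyond 1 log2 unit in both control sections, the 4 higher in the cortex were called in the injured sections and the 5 higher in the medulla were not.

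Whether the control difference was of another size than the injured one was tested as the difference of the 2 contrasts. No probe passed an adjusted p under 0.05 by edgeR (0 of 20175, or 0%), while 499 (2.47%) had an unadjusted p under 0.05. DESeq2 also called 0, and its unadjusted p was under 0.05 for 274. Without the medullary segment of section 2, edgeR called 7 probes, 6 of them with a more positive medulla-to-cortex difference in control.

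The macrophage segments of the same regions were compared next. Of the 14228 probes tested, 1 was called (0.00703%), with 645 (4.53%) at an unadjusted p under 0.05. This probe was higher in the medulla with a log2 fold change of 3.42 and a standard error of 0.56 (edgeR adjusted p = 6.99e-05). It had 5 and 53 counts in the medullary segments of sections 1 and 2, and 0, 1, 4, and 0 counts in the 4 cortical segments. The call therefore rests on few counts, most of them in the medullary segment of section 2. The same probe had a log2 fold change of 0.14 in the control tubules (edgeR adjusted p = 0.992). Leaving out 1 macrophage segment changed the number of calls to between 1 and 23, the latter without the medullary segment of section 2, with 12 calls without the first cortical segment of section 2 and 3 and 4 without the first of section 1 and the second of section 2. Without the section in the model no macrophage probe was called, with 618 at an unadjusted p under 0.05.

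In section 1 the lists differed between macrophage segments in the same direction as in the tubules beside them, and in section 2 the cortex list did not separate the regions. The medulla list took 0.906% of counts (95% exact binomial CI, 0.852% to 0.962%) in the medullary macrophage segment of section 1, against 0.210% (0.158% to 0.272%) and 0.264% (0.192% to 0.354%) in the cortical ones. In section 2 it took 0.352% (0.322% to 0.383%), against 0.296% (0.266% to 0.329%) and 0.306% (0.247% to 0.374%), so that these intervals overlapped. The cortex list took 2.41% (2.33% to 2.50%) in the medullary macrophage segment of section 1, against 7.31% (7.00% to 7.63%) and 7.00% (6.62% to 7.40%). In section 2 it took 4.86% (4.75% to 4.97%), between the cortical values of 6.79% (6.65% to 6.94%) and 4.09% (3.87% to 4.32%). The probe RTS0080792 had 421 counts in the medullary macrophage segment of section 1 and 144 in that of section 2, against 10, 1, 7, and 0 in the cortical ones. Transcripts of neighboring tubules in the macrophage segments could not be assessed by markers, and their part in these values was not tested.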

How the data were processed

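FFPE kidney sections were profiled with the GeoMx Mouse Whole Transcriptome Atlas, whose probes carry barcodes that UV light frees from a selected segment for sequencing. As deposited, the values were whole UMI counts per probe and segment, which the authors made with the GeoMx NGS Pipeline and no normalization or background subtraction. The submitters' processing notes name mm10 and R version 4.3.1. The authors' later removal of low probes and of 2 outlier samples was not repeated, since negative probes and those samples are not named in the sources used here.

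Members and lists were chosen with earlier results of these data known. Counts of the 48 tubule segments were summed per section and region (28 sums, totals of 1235205 or more). The filter on low counts (filterByExpr in edgeR, with a minimum count of 10 and a minimum total of 15) kept all 20175 in tubules and 14228 in macrophage segments. The sums were scaled by the upper quartile, as in the study, and fitted by edgeR (version 4.0.16, R 4.3.3, robust quasi-likelihood) with the section as a block and a medulla term per condition, which left 7 residual degrees of freedom. The study used DESeq2 with each region as a replicate. Standard errors were taken as the size of the log2 fold change over the root of F. Log2 differences within a section used CPM plus a pseudocount of 1. The rule for named probes asked for the called ones with the smallest p, and none was called. The other tools were DESeq2 (version 1.42.0) and limma (version 3.58.1).

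The section, read from the title prefix, pairs medulla with cortex. Chi-square per degree of freedom between the raw counts of 2 cortical segments was 1.45 and 1.73 within a section and 8.71 to 12.4 between sections, so that pairs within a section were more alike and still differed by more than sampling noise. Control tubule segments held 2226395 counts or more.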

Additional observations from a re-analysis of the deposited data

Results flagged for a closer look

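Values of the 4 cortical control segments of each compartment were examined for a segment far from the other 3, in 16 groups of 4 values, of which chance marks about 1 in 20. The first cortical macrophage segment of section 2 held 120821 counts, against 16693 to 31069 in the other 3. The cortex list took 4.09% of counts in the second cortical macrophage segment of section 2, against 6.79% to 7.31% in the other 3. No value of the cortical tubule segments stood apart by this rule.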

How the results depend on the processing

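For the control tubules, TMM normalization, no filter on low counts, the 4 control sums alone, leaving out the second segments of regions with 2 tubule segments, and the adjusted p alone also gave 0 calls. Some of these could not differ. The filter had kept all 20175 probes, so dropping it repeated the same fit. With a smallest adjusted p of 0.166 by edgeR, the adjusted p alone could give no call. Second segments were found only in injured sections, so leaving them out changed no control count. Calls were made by DESeq2 on the sums (3), limma-voom on 48 segments (42), edgeR on 6 segments (4), DESeq2 on 6 segments without the section (30), and edgeR after thinning all sums to the lowest total (3). The cause of these differences was not tested. Without the replicate block, which ignores the pairing by section, the count stayed at 0 in control tubules, with 579 probes at an unadjusted p under 0.05 in place of 814. Without the block the count went from 1 to 0 in macrophage segments and from 205 to 227 in the injured tubules, and stayed at 0 for the difference of contrasts. Leaving out 1 segment at a time gave 0 to 83 calls in control tubules, 1 to 23 in control macrophage segments, and 0 to 7 for the difference of contrasts. With 1 medullary segment left out, a single section carried the contrast and was assumed to vary like the others. Without a filter on low counts, 6 macrophage probes were called. The number of probes with no overlap went from 2043 to 1725 with CPM by total count, 2086 with TMM scaling, and 2026 of those with at least 10 counts in every segment. The share of them higher in the medulla was 55.2% by total count and 48.3% with TMM scaling, against 53.0%.

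Over 16 alternative fits added after seeing the data, the median control log2 fold change stayed above 0 for the medulla list and below 0 for the cortex list. Leaving out 1 segment at a time moved it between 0.27 and 2.27 for the medulla list and between -1.80 and -0.24 for the cortex list, with both extremes set by the 2 medullary segments. The SD of the regional difference was 0.672 in section 1 and 0.17 in section 2 over probes above 30 CPM, and 1.48 and 0.442 over probes above 300 CPM. Named probes kept their direction in all 64 fits. They were chosen for their values in the same control segments that these fits reuse, so this is no independent support.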
